A study of Mus musculus with 778 samples.

Results

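The synaptonemal complex is the protein ladder that holds homologous chromosomes together during the prophase of the first meiotic division. The 9 genes described here encode its parts and the axis proteins that act with it: *Sycp1*, *Sycp2*, *Sycp3*, *Syce1*, *Syce2*, *Syce3*, *Tex12*, *Hormad1* and *Hormad2*. They were taken by name from the count table of single-cell RNA-seq of mouse oocytes, and all 9 were found among its 23201 genes, of which 18900 had at least 1 UMI (unique molecular identifier, a random tag by which copies of 1 cDNA molecule are counted once).

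The table held 223 oocytes picked by hand from ovaries of wild type ICR mice, and the stages were set by oocyte diameter and mouse age. The 46 non-growing oocytes (NGO, under 20 μm) came from mice 3 to 4 days old. The growing oocytes, 51 of GO1 (30 to 45 μm), 26 of GO2 (50 to 55 μm) and 44 of GO3 (60 to 65 μm), and the 56 fully-grown oocytes (FGO, over 70 μm) came from mice 3 to 4 weeks old. Stage and mouse age therefore cannot be told apart wherever NGOs are compared with later stages. The cells came from 4 libraries, but no label ties a cell to its library, so each stage was 1 pooled sample and no test between stages could be made.

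In textbook terms, the lateral elements that run along each chromosome are built from SYCP2 and SYCP3, the transverse filaments that bridge them from SYCP1, and the central element where the filaments meet from SYCE1, SYCE2, SYCE3 and TEX12. HORMAD1 and HORMAD2 sit on chromosome axes that are not yet synapsed and leave them as the complex forms. In female mice the complex is assembled in fetal life and taken apart around birth, when oocytes enter the long dictyate arrest, so all 5 stages measured here lie at or after its disassembly.

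Levels are given as CPM, the UMIs of a gene in all cells of 1 stage per 1000000 UMIs of that stage. The rule of size for a change was a 2-fold difference, with the larger of the CPM values at 10 or above, and "rose" and "fell" are used for such changes alone. Ranges in parentheses are exact 95% intervals that cover counting error only. CPM gives a gene's share of the UMIs counted, not its molecules per oocyte, and it is not scaled by transcript length, so levels are compared here between stages and not between genes.

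From NGO to GO1, 4 of the 9 genes fell, *Sycp3*, *Sycp1*, *Syce1* and *Syce3*, by 5.68-fold to 45.7-fold, and none rose. Of all 8527 genes tested in that step 25.7% were lower in GO1 and 20.6% were higher. The other 5 members did not pass the rule of size in that step, and *Syce2* stayed near 1000 CPM in every stage (961 to 1093). No member passed the rule from GO1 to GO2 (3.14% of all genes did) or from GO2 to GO3 (4.35%). From GO3 to FGO *Syce1* rose 4.19-fold, with 2.41% of all genes higher and 3.54% lower in FGO, and the other members did not pass.

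The 300 bases around the annotated start of each gene (250 before and 50 after, from RefSeq) were searched for 5 short motifs on both strands, and those of 6 members are shown because they set 4 genes that fell beside 2 that did not pass the rule in the same step. CACGTG is the E-box and GCGGGAA resembles the binding site of E2F6. Both kinds of site are known from promoters of meiotic genes that a variant Polycomb complex keeps silent outside the germline. The 150 bases before the start are printed 5′ to 3′ on the gene's strand in NCBIM37, which is the same build as mm9, with CACGTG and GCGGGAA in capitals.
Sycp3, plus strand of chr10:87922182-87922331: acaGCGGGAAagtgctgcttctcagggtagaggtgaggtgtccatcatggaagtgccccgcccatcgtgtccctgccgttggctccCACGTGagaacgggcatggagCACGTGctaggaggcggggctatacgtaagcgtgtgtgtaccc
Sycp1, minus strand of chr3:102740024-102740173: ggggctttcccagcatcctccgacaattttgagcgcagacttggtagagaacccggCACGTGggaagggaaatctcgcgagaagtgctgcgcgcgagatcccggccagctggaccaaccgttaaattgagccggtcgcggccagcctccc
Syce1, minus strand of chr7:147973754-147973903: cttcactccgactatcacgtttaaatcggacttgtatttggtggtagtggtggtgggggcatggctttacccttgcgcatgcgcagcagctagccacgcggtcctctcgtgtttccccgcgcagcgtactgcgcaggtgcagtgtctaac
Syce3, minus strand of chr15:89240935-89241084: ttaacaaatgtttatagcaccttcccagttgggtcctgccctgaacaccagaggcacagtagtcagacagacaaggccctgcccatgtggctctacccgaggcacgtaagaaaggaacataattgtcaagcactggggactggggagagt
Hormad1, plus strand of chr3:95363449-95363598: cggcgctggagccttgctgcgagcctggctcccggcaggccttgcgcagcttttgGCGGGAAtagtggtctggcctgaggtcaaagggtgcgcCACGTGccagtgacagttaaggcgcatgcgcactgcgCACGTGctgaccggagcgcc
Tex12, minus strand of chr9:50369374-50369523: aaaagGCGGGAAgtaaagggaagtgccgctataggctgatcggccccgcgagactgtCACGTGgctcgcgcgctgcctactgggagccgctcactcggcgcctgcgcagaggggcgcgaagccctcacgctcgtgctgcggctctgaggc

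The E-box was found in a window of 5 of the 9 members, *Hormad1*, *Syce2*, *Sycp1*, *Sycp3* and *Tex12*, and in 7.15% of all 32851 windows. *Sycp3* held a pair of them, beginning 64 and 43 bases before the start, and the E-box of *Sycp1* began 94 bases before it. GCGGGAA was found in 4 members (*Hormad1*, *Syce2*, *Sycp3* and *Tex12*) and in 4.60% of all windows. *Sycp3*, which fell, and *Tex12* and *Hormad1*, which did not pass the rule from NGO to GO1, thus held both motifs, while the printed windows of *Syce1* and *Syce3* held neither. The match of *Syce2* lay before the second of its annotated starts, with the E-box beginning 88 and GCGGGAA 34 bases before it.

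The letters GCGCATGC, the core of the NRF1 motif, were found in *Hormad1* and *Syce1* and in 2.71% of all windows, as overlapping matches on the 2 strands whose first bases lay 36 and 76 bases before the start. The GC box GGGCGGGG was found in 4 members (*Syce2*, *Syce3*, *Sycp2* and *Sycp3*) and 17.6% of windows, and CCAAT in 2 members (*Syce3* and *Sycp3*) and 37.4% of windows. For *Syce3* these lay before the second of its starts. GC boxes of *Syce2* also overlapped one another, and matches of different motifs did not overlap within a window. For each motif a member was counted if any of its windows matched, and *Hormad1*, *Syce2* and *Syce3* had 2 windows. The shares of all windows count each window by itself, so the values are not like for like. GC content of the members' windows was 54.7% to 69.3%, beside a median of 52.7% over all windows. The letters CG, which CACGTG and GCGGGAA contain, occurred 5 to 33 times in the members' windows, beside a median of 7. These matches are letters in a window, and neither binding nor use of a start was measured here.

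*Sycp3* (NCBIM37 chromosome 10, 87922314 to 87935981, plus strand) encodes the lateral element protein most used to stain meiotic chromosomes. Its level was 1098 CPM (1085 to 1111) in NGO and 46.7 in GO1. It then stood at 38.8, 35.9 and 52.6 CPM in GO2, GO3 and FGO. The drop from NGO to GO1 was 23.5-fold (22.2 to 24.9). In single oocytes the lowest NGO had 229.7 CPM, the median NGO 1133 and the highest 2021, and the GO1 cells ranged from 0 through a median of 40.7 to 240 CPM. The stages were all but separate cell by cell, since 1 of 51 GO1 oocytes reached the level of the lowest NGO. No FGO did, the highest of them having 181 CPM, so that NGO and FGO cells did not overlap.

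The *Sycp3* transcript nevertheless remained countable throughout growth. After each cell was thinned to 20000 UMIs, a *Sycp3* UMI was found in 100% of NGOs, in 46.2% to 54.5% of the cells of GO1, GO2 and GO3, and in 62.5% of FGOs. Without thinning, 43 of 51 GO1 cells and 56 of 56 FGOs had one. For comparison, 10 granulosa cell markers were followed. They reached widely different shares of cells, from *Amh* with a UMI in 3 of 51 GO1 cells and 1 of 56 FGOs to *Cyp19a1*, the aromatase gene, in 31 GO1 cells and *Fshr*, the FSH receptor gene, in 33 FGOs. After thinning, the highest share of any of the 10 was 29.4% in GO1, 34.6% in GO2 (both *Cyp19a1*), 11.4% in GO3 (*Fshr*) and 7.14% in FGO (*Inha*), below that of *Sycp3* in each of these stages. Without thinning, *Cyp19a1* had a UMI in 25 of 26 GO2 and 44 of 44 GO3 cells. Whether its UMIs and those of *Fshr* came from granulosa cells was not tested, so the highest share is not a measured background. The median depth was 110146 UMIs per cell in GO1 and 792312.5 in FGO. Over its length *Sycp3* overlaps *Chpt1* on the other strand, which had 2.26 CPM in NGO and under 0.81 CPM afterwards, and the sources used here do not say whether counting used the strand.

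*Sycp1* (chromosome 3, 102622422 to 102740023, minus strand), which encodes the transverse filament protein, had 172 CPM (167 to 177) in NGO and 30.3 in GO1, 5.68-fold (5.27 to 6.13) less. Its later levels were 32.2, 18.5 and 25.1 CPM in GO2, GO3 and FGO, and none of the steps between them reached 2-fold. Single NGOs ran from 44.1 through a median of 142.2 to 462 CPM, and GO1 cells from 0 through 27.5 to 210 CPM. Here the stages overlapped, with 15 of 51 GO1 oocytes at or above the lowest NGO. After thinning, *Sycp1* was seen in 91.3% of NGOs and in 26.9% to 45.1% of cells of the later stages, and its 26.9% in GO2 was not above the 34.6% of *Cyp19a1*. The pseudogene *Sycp1-ps1* has a row of its own, with at most 0.397 CPM in any stage.

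**Figure D1:**
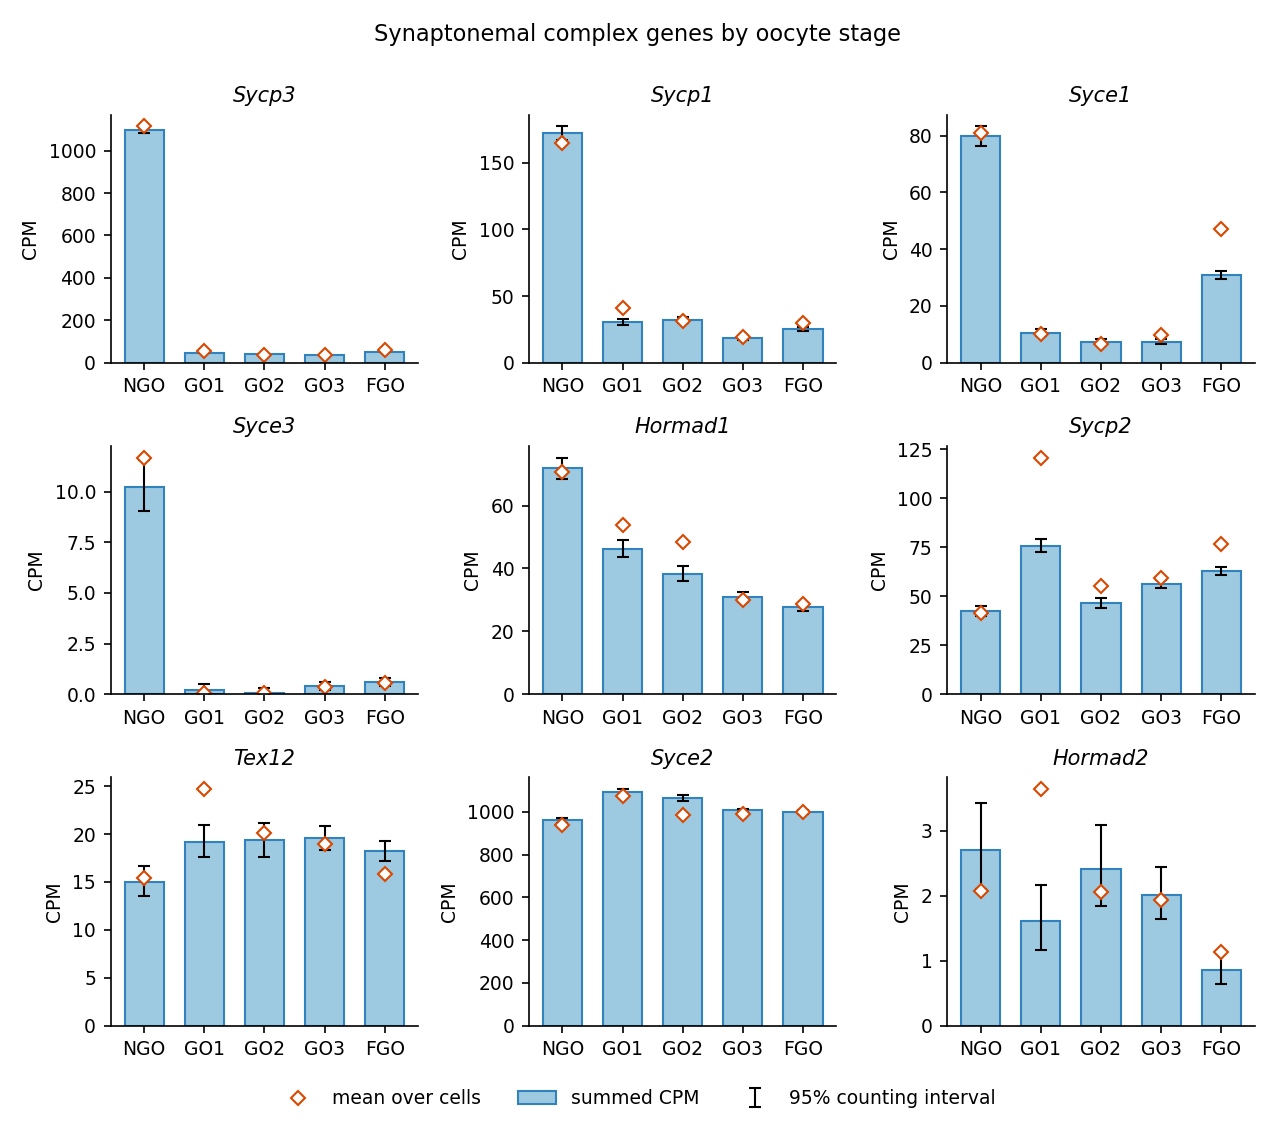
Level of the 9 genes in 5 oocyte stages, 1 panel per gene with its own axis in CPM. Bars are UMIs summed over the cells of a stage per 1000000, error bars exact 95% counting intervals, and diamonds the mean over cells of each cell's CPM. *Sycp3* dropped from 1098 to 46.7 CPM between NGO and GO1, *Syce2* held between 961 and 1093, and *Syce1* went from 7.39 CPM in GO3 to 30.96 in FGO.

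*Syce1* (chromosome 7, 147963128 to 147973753, minus strand), a central element gene, was the only member that passed the rule in opposite directions at different steps. It had 79.8 CPM (76.3 to 83.3) in NGO and 10.5 (9.31 to 11.8) in GO1, a 7.59-fold (6.70 to 8.63) fall. It stood at 7.17 CPM in GO2 and 7.39 in GO3. In FGO it had 30.96 CPM (29.6 to 32.3), 4.19-fold (3.75 to 4.70) above GO3 and still 2.58-fold (2.42 to 2.74) below NGO. By the mean over cells, which gives each oocyte the same weight, FGO was 4.75-fold above GO3 and 1.72-fold below NGO, so that the fall from NGO to FGO did not pass the rule on that scale.

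The rise of *Syce1* was broad among FGOs. Their levels ran from 2.58 CPM through quartiles of 17.1, 36.9 and 63.5 to 192 CPM, while GO3 cells ran from 0 through 5.04, 7.32 and 10.5 to 78.7 CPM. The quartile ranges did not overlap, although single cells of the stages did, and 51 of 56 FGOs were at or above the lowest NGO. After thinning to 20000 UMIs a *Syce1* UMI was seen in 67.4% of NGOs, 19.6% of GO1, 7.69% of GO2, 11.4% of GO3 and 55.4% of FGO cells. The shares in GO1, GO2 and GO3 were not above the highest of the granulosa markers given above, and that in FGO was. The level went with depth in FGO: the 10 deepest cells had 17.4 CPM and the other 46 had 44.4 CPM, and *Syce1* CPM and UMIs per cell had a rank correlation of -0.45 over the 56 cells. In GO3 the corresponding values were 5.37 CPM, 9.16 CPM in the other 34 cells, and -0.43, and the part of depth in the rise was not tested. The paralogue *Syce1l* had at most 0.476 CPM.

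*Syce3* (chromosome 15, 89220605 to 89240934, minus strand), another central element gene, was close to the limit of detection after NGO. It had 258 UMIs in NGO (10.2 CPM, 9.03 to 11.6), then 6, 2, 19 and 38 in GO1, GO2, GO3 and FGO, which is 0.224, 0.0801, 0.381 and 0.591 CPM. The fall to GO1 was 45.7-fold, with a counting interval of 20.7 to 125.6. Its NGO level lay only just above the 10 CPM that the rule asks for, and with TMM or DESeq2 scaling it lay below and *Syce3* was not counted as changed. A UMI was found in 40 of 46 NGOs, 3 of 51 GO1, 2 of 26 GO2, 12 of 44 GO3 and 14 of 56 FGO cells, and after thinning in 23.9% of NGOs and in no cell of any later stage. A count of 0 allows a share of up to 5.88% of GO1, 11.5% of GO2, 6.82% of GO3 and 5.36% of FGO cells with a UMI at the thinned depth, which sets no limit on cells that hold the transcript. The 10 granulosa markers had a UMI in 2 to 31 GO1, 0 to 25 GO2, 0 to 44 GO3 and 1 to 33 FGO cells. Nearly any share would lie within so wide a range, so it cannot tell whether *Syce3* stood above stray counts. *Foxl2*, one of these markers, had a UMI in 5, 3, 3 and 8 cells of these stages.

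The genes that fell at the start of growth were thus 1 of the lateral element, the transverse filament gene and 2 of the central element. Of the 9 members, 8 had 10 CPM or more in NGO or GO1. The 4 of 8 are to be read against the 25.7% of all genes tested that were lower in GO1 by at least 2-fold. The median log2 difference of CPM + 1 was -1.55 over the 8 members tested, -0.62 over all 9, and -0.14 over all genes tested. *Sycp3* (-4.53 on that scale), *Syce3* (-3.20), *Syce1* (-2.81) and *Sycp1* (-2.47) each lay below -2.43, the 5th percentile of all genes tested.

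**Figure D2:**
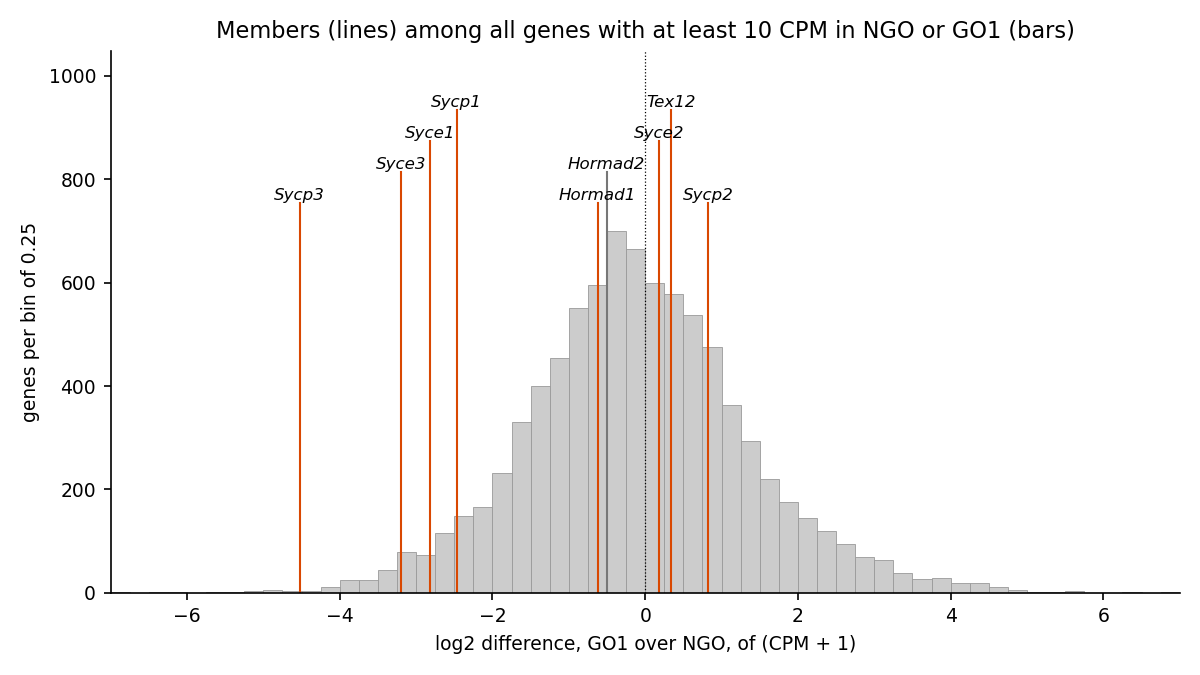
Histogram of the log2 difference of CPM + 1, GO1 over NGO, over the 8527 genes that reached 10 CPM in NGO or GO1 (bars, 0.25 wide), with the 9 members as vertical lines whose heights have no meaning. *Hormad2* (grey line) was below 10 CPM in both stages and was not tested. The lines of 4 members stand in the left tail, from *Sycp3* at -4.53 to *Sycp1* at -2.47, and the other members lie between -0.62 and 0.82.

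*Hormad1* (chromosome 3, 95363599 to 95391593, plus strand), whose protein marks unsynapsed axes, was lower at each successive stage without any single step passing the rule. It had 71.8 CPM (68.5 to 75.2) in NGO, followed by 46.2, 38.2 and 30.95 CPM in GO1, GO2 and GO3. The FGO level was 27.6 CPM (26.4 to 28.96). From NGO to FGO it fell 2.60-fold (2.43 to 2.77), while the first step was 1.55-fold (1.44 to 1.67). Single NGOs ran from 22.1 through a median of 66.1 to 171 CPM and FGOs from 0 through 24.96 to 107.3 CPM, with much overlap. In thinned cells the first step gave a log2 difference of 0.05 in place of -0.63. *Hormad2* (chromosome 11, 4245817 to 4341108, minus strand), the other HORMA domain gene, had 43 to 100 UMIs in every stage and 0.855 to 2.70 CPM, below the level at which the rule applies.

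*Sycp2* (chromosome 2, 178079998 to 178142390, minus strand), which encodes the partner of SYCP3 in the lateral element, did not share its pattern. It had 42.3 CPM (39.8 to 44.9) in NGO and 75.7 (72.4 to 79.1) in GO1, then 46.5, 56 and 62.9 CPM in GO2, GO3 and FGO. The difference from NGO to GO1 was 1.79-fold (1.66 to 1.93) in the sums and 2.91-fold in the mean over cells. Single NGOs ran from 9.35 through a median of 37.2 to 93.7 CPM and GO1 cells from 0 through 110.9 to 327.7 CPM, so the GO1 median lay above the highest NGO. The GO1 sum rests on few cells: the 10 deepest held 80.4% of the UMIs of that stage and had 68.5 CPM of *Sycp2*, against 105.3 in the other 41. By the mean over cells, in thinned cells and without the 10 deepest cells of each stage *Sycp2* passed the rule as higher in GO1, so its call depended on how cells were weighted, with a rank correlation of -0.39 between its CPM and UMIs per cell over the 51 GO1 cells.

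**Figure D3:**
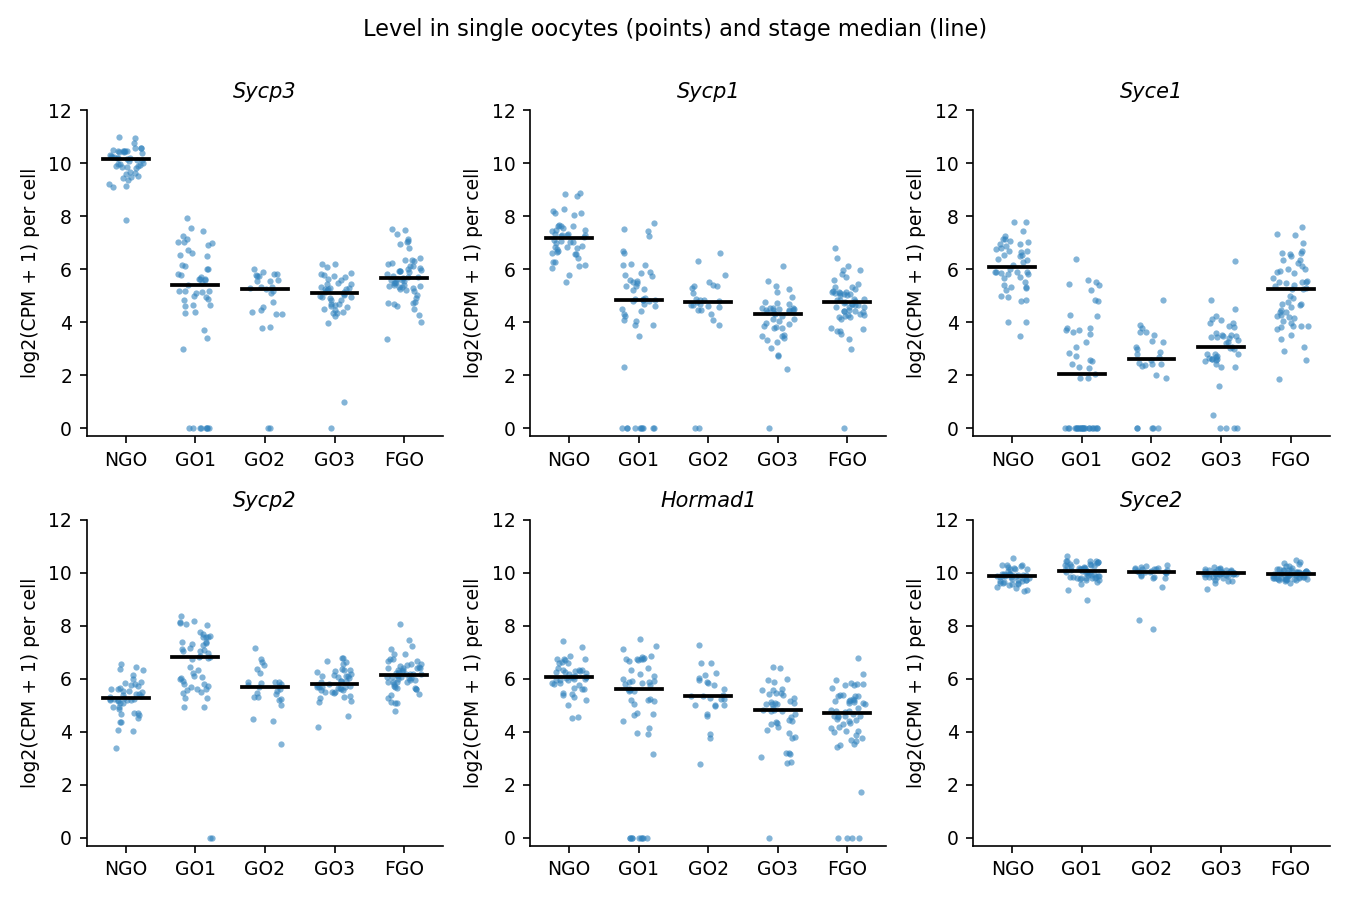
Level in each oocyte (points, log2 of CPM + 1, shifted sideways at random) and stage median (line) for 6 members in 5 stages. Of the 51 GO1 cells 1 reached the lowest NGO for *Sycp3*, and the median of *Sycp2* was 110.9 CPM in GO1 against 37.2 in NGO. Most *Syce2* points form a narrow band in every stage, with GO2 cells at 233 and 296 CPM and a GO1 cell at 504 CPM below it.

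*Syce2* (chromosome 8, 87396010 to 87412120, plus strand) and *Tex12* (chromosome 9, 50365253 to 50369373, minus strand) encode central element proteins that assemble together. Neither passed the rule at any step in the summed counts. *Syce2* had 961 CPM in NGO and 1093 in GO1, then 1064, 1007 and 998 CPM in GO2, GO3 and FGO, and the GO1 level was 1.14-fold (1.12 to 1.16) that of NGO. Every one of the 223 oocytes had *Syce2* UMIs, also after thinning. Single cells ran from 633 to 1495 CPM in NGO and from 777 to 1430 CPM in FGO. The ranges were 504 to 1578 CPM in GO1, 233 to 1231 in GO2 and 661 to 1171 in GO3. The 3′ part of the gene overlaps *Gcdh* on the other strand, which had 9.23 to 19.7 CPM, so reads of the pair may not be separated.

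*Tex12* had 15.04 CPM (13.6 to 16.6) in NGO and 18.2 to 19.6 CPM in the other stages. Its step from NGO to GO1 was 1.28-fold (1.12 to 1.46) in the sums and 1.60-fold by the mean over cells. In thinned cells *Tex12* passed the rule as higher in GO1. Of the 28 pairs among the 8 members other than *Hormad2*, *Syce2* and *Tex12* had the most alike stage patterns, with a root mean square difference of 0.096 in log2(CPM + 1) over the 5 stages after each gene was centred on its own mean. This distance is not scaled to how much a gene changes, so genes that change little lie close together. Genes outside the list lay closer to each of the pair, as given below. The corresponding distance was 0.44 for *Sycp1* and *Syce3*, 0.61 for *Syce1* and *Syce3*, and 2.06 for the partners *Sycp2* and *Sycp3*. Among the central element genes, *Syce1* and *Syce3* thus had their highest level in NGO. In the summed counts *Syce2* and *Tex12* had their lowest there, by small margins.

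Summed over the 9 genes, NGOs had 2453 CPM and the later stages 1177 to 1323 CPM. *Sycp3* made up 44.8% of these UMIs in NGO and 3.05% to 4.32% afterwards, and *Syce2* 39.2% in NGO and 82.01% to 85.5% afterwards. These are shares of UMIs with no correction for length. The summed level of single oocytes ran from 1650 through 2376 to 3533 CPM in NGO and from 1008 through 1409 to 1897 CPM in GO1.

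Between the growing stages no member passed the rule in the summed counts. From GO1 to GO2 none of the 7 members tested did, against 3.14% of all genes, and the median log2 difference of CPM + 1 was -0.26 over the members and -0.11 over all genes. Other settings gave other calls at this step. *Sycp2* was lower in GO2 by the mean over cells (log2 difference -1.12), with 16.5% of all genes changed. *Sycp1* (-1.07, in place of 0.09 in the sums) and *Syce1* (-1.03) were lower in thinned cells, with 23.9% changed. There 7 of 26 GO2 cells had a *Sycp1* UMI and 2 of 26 a *Syce1* UMI. By the mean over cells *Sycp1* was at -0.40 and *Syce1* was 1.56-fold lower in GO2, and neither passed the rule. From GO2 to GO3 none of 6 passed, beside 4.35% of all genes, with medians of -0.09 and 0.08. *Sycp1* had the largest drop of that step among the members tested, 1.74-fold (1.58 to 1.92). Its log2 difference at that step was -0.80 in the sums, -0.68 by the mean over cells and -0.59 without the 10 deepest cells. In thinned cells alone it was 0.24, where 7 of 26 GO2 cells had a *Sycp1* UMI.

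From GO3 to FGO *Syce1* was the 1 of 7 members tested that was higher, beside 2.41% of all genes, and none was lower, beside 3.54%. *Sycp3* was 1.47-fold (1.38 to 1.55) and *Sycp1* 1.36-fold (1.25 to 1.47) higher in FGO than in GO3, under the limit. From end to end, 5 of 8 members tested were lower in FGO than in NGO, beside 16% of all genes, and none was higher, beside 11.3%. These were *Sycp3* (20.9-fold, 20.1 to 21.6), *Syce3* (17.3-fold, 12.3 to 25.05), *Sycp1* (6.85-fold, 6.47 to 7.26), *Hormad1* and *Syce1*. This comparison shares its NGO cells with the first step and its FGO cells with the last.

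Across the cells of a stage, the CPM of *Syce1* and *Sycp3* had a rank correlation of 0.58 in 46 NGOs and 0.48 in 56 FGOs, and of 0.37 and 0.22 after thinning to equal depth. In GO1, GO2 and GO3 the values were 0.04, 0.27 and 0.13, and -0.05, 0.36 and -0.14 after thinning. The other members had rank correlations with *Sycp3* between -0.32 and 0.26 in NGO and FGO, and *Tex12* had 0.23 in thinned FGOs. Cells of a stage share libraries, depth and animals in ways the labels do not resolve, so these values are a description.

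Genes whose stage pattern was most like that of each member were sought among the 8671 genes that reached 10 CPM in some stage, by the same root mean square distance. For *Sycp3* the nearest were *Bex3*, *Cox4i2* and *Mageb4*, at 0.24 to 0.28, with *Bex3* at 38.5 CPM in NGO and 0.823 to 2.10 CPM later. For *Sycp1* they were *Acadl*, *M1ap* and *Cyp2c29* (0.18 to 0.24). For *Syce1* they were *Maged2*, *Ctsa* and *4932438H23Rik* (0.15 to 0.22), with *Ctsa* going from 38.3 CPM in NGO through 3.48 in GO1 and 3.61 in GO3 to 13.1 in FGO. For *Syce3* they were *Six5*, *Bloc1s6* and *Fbln1* (0.098 to 0.11).

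The members that did not fall at the first step had closer neighbours, on a distance that is smaller for genes that change little. The nearest genes were *Pgbd5*, *Trak1* and *Pcf11* for *Sycp2* (0.024 to 0.059), *Klc1*, *Ppih* and *Tank* for *Syce2* (0.021 to 0.030), and *Zfp398*, *Taf1b* and *Adck2* for *Tex12* (0.017 to 0.023). For *Hormad1* they were *Exoc4*, *Dnajc5g* and *St7l* (0.064 to 0.087). A nearby pattern over 5 pooled stages shows no more than similar levels.

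Other genes of meiotic prophase were followed as a list of 30 partners in 4 groups: synapsis and crossover, chromosome axis and cohesin, telomere attachment, and meiotic entry. The table held 28 of them, and 18 could be tested from NGO to GO1. By the rule 4 were lower and 2 higher in GO1, beside the 25.7% and 20.6% of all genes given above. The median log2 difference of CPM + 1 was -0.36 over the 18.

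The 4 lower partners came from 3 of the groups. *Smc1b*, a cohesin subunit specific to meiosis, fell from 660 to 65.8 CPM (10.02-fold, 9.54 to 10.5). *Fkbp6*, known to be needed for synapsis in males, fell from 208 to 18.1 CPM (11.5-fold, 10.5 to 12.6). *Rbm46*, an RNA-binding protein needed for meiosis, fell from 46 to 0.972 CPM (47.3-fold, 32.1 to 72.8), and *Trip13*, the ATPase that removes HORMAD proteins from synapsed axes, fell from 22.98 to 8.52 CPM (2.70-fold, 2.31 to 3.16). From GO3 to FGO 17 partners could be tested, and 2 were higher and 2 lower, beside 2.41% and 3.54% of all genes. The higher were *Smc1b* (2.05-fold, 1.98 to 2.13) and *Fkbp6* (2.03-fold, 1.89 to 2.18), with intervals that reach below 2-fold. The lower were *Mei4* and *Ccdc36*.

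The 2 higher partners both belong to the machinery that starts meiotic DNA breaks on the chromosome axis. *Mei4* went from 2.70 CPM in NGO to 74.1 and 76.4 CPM in GO1 and GO2, then to 29.3 in GO3 and 3.51 in FGO, so it was 27.5-fold (21.6 to 35.5) higher in GO1 than in NGO. *Ccdc36*, which encodes the axis protein IHO1, had 15.6 CPM in NGO and 52.3, 59.8, 23 and 9.66 CPM in the stages that follow, a first step of 3.36-fold (3.01 to 3.77). *Rec114*, their partner in the same complex, had 62.7 CPM in NGO and 37.1 to 54.1 CPM in the other stages. *Tex11*, a crossover factor, was 1.96-fold higher in GO1 and lay just under the limit.

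Of the remaining list, the telomere attachment genes that could be tested, *Sun1*, *Terb1*, *Ccdc155* and *Lmna*, did not pass the rule at any step in the summed counts. Below 10 CPM, and so not tested, *Terb2* went from 7.70 CPM in NGO to 0.673 in GO1. Likewise *Spdya* went from 2.66 to 0.336 CPM and *Majin* from 5.12 to 4.97 CPM. By the mean over cells *Ccdc155* (2.72-fold) and *Lmna* (2.30-fold) were lower in GO1 than in NGO, as they were in thinned cells and without the 10 deepest cells of each stage. *Sycp2l*, the oocyte paralogue of *Sycp2* (chromosome 13, 41209676 to 41269847, plus strand), had 17.1 CPM in NGO and 10.1 to 12.9 CPM in the later stages. *Stra8* and *Rec8*, a gene of meiotic entry and a cohesin subunit, had at most 2 UMIs in any stage. From GO1 to GO2 no partner tested passed the rule.

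**Figure D4:**
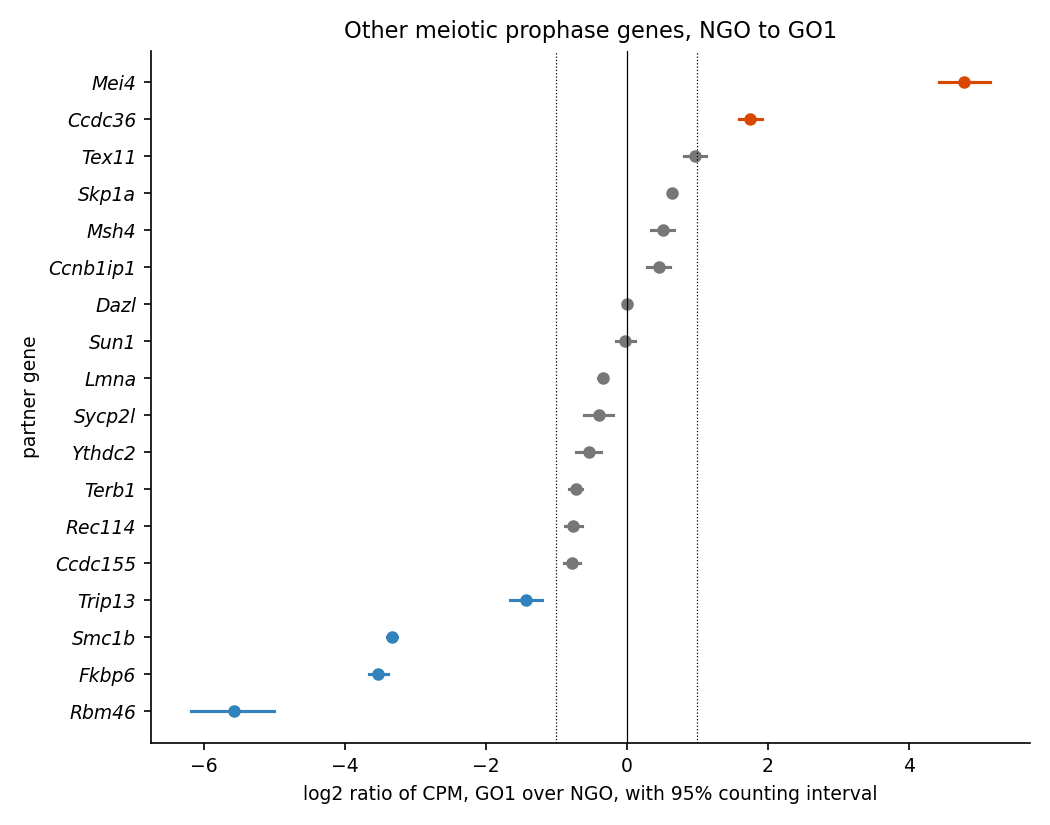
Log2 ratio of CPM, GO1 over NGO, for the 18 partner genes that could be tested (points), with exact 95% counting intervals (bars) and dotted lines at 2-fold. *Mei4* and *Ccdc36* (orange) lie above the upper limit, and *Trip13*, *Smc1b*, *Fkbp6* and *Rbm46* (blue) below the lower one.

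The cells carried the marks of oocytes. All 10 oocyte markers were at 10 CPM or more in every stage, but their levels moved too. Their sum went from 26004 CPM in NGO to 13504 in GO1 and 19696 in FGO. *Gdf9* had 4755 to 5681 CPM throughout. From NGO to GO1 *Figla* went from 597 to 65.5 CPM, *Ddx4* from 342 to 65.2, *Zp2* from 4250 to 827, *Zp3* from 11226 to 4217 and *Zp1* from 2727 to 1266, while *Bmp15* went from 128.6 to 825 CPM. The 10 granulosa markers summed to 8.06 CPM in NGO and 24.5 in GO1, of which *Cyp19a1* made up 16.3, while *Amh* had at most 0.112 CPM. The 6 stromal markers summed to 7.98 CPM in NGO and under 0.66 in each later stage, and of 8 blood and vessel markers the hemoglobin genes were at 0 UMIs and *Pecam1* had 4.60 CPM in NGO and 26.7 to 48.8 later. In single cells the stromal sum reached 251 CPM in NGO and the granulosa sum 187 CPM in GO1. The part of these marker levels and differences in the members' levels was not tested. Stage totals ran from 24976634 to 64311908 UMIs and single cells from 22279 to 3898137, and the 10 deepest cells held 73.2% of the UMIs of GO2.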

How the data were processed

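The measurement was single-cell RNA-seq of picked oocytes, with UMIs. Per the methods of the study, the authors split reads by barcode and trimmed and mapped them (Tophat, mm9 transcriptome), then collapsed reads with the same UMI and filtered cells. They deposited raw UMI counts per gene and cell, which were the values used here. The deposited barcode list holds 96 barcodes for 223 cells in 4 libraries, and which cells share a barcode is not given in the sources used here. The iscCOOL-seq data were not analysed here. Cell names give the stage and no library, so each stage was 1 pooled sample and no p-value was computed.

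UMIs were summed per stage and scaled to CPM. A change needed 2-fold and 10 CPM in the higher stage. Poisson, binomial-split and Clopper-Pearson intervals are exact, at 95%, and cover counting error only. A share of 0 was given the limit of 3 counts, which is below the exact limit. Thinning took 20000 UMIs per cell, or 50000, which left out 13 GO1 cells. Oocytes were picked by hand and doublets were not called. The calls were tried on simulated stage sums with no spread between cells, with changes larger than 2-fold in genes well above 10 CPM. That does not show how the calls behave near these limits or with unequal cells.

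Genes named are the 9 members, partners that changed from NGO to GO1, *Sycp2l*, and the 3 genes nearest in pattern to each member with at least 10 CPM. *Rec114*, *Tex11*, *Stra8*, *Rec8*, the telomere genes and single marker genes were named after their values were seen. The members and lists were chosen with earlier results of these data known. Alternatives were TMM factors (edgeR 4.0.16) and DESeq2 1.42.0 size factors, used for scaling only, the mean over cells, thinned cells, sums without the 10 deepest cells or without cells under 50000 UMIs, no minimum or 50 CPM, and a 1.5-fold limit. Alternatives for the partner counts were added after the data were seen. Positions are those of GENCODE vM1. Promoters come from RefSeq windows on GRCm38.p6, and each was placed by a single exact match in NCBIM37. Python 3.11.15, pandas 2.3.3, scipy 1.17.1 and R 4.3.3 were used.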

Additional observations from a re-analysis of the deposited data

How the results depend on the processing

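No paired analysis was possible because each stage was 1 pooled sample with no replicate numbers, and for the same reason no replicate could be left out. Of the members' counts of changed genes, 41 stayed within 1.5 times their value under an alternative and 13 did not, and the cause was not tested. The 4 members lower in GO1 became 3 with TMM or DESeq2 factors or a 50 CPM minimum, which lost *Syce3*, and 5 at 1.5-fold, which added *Hormad1*. Of all genes tested, 21.6%, 23.1%, 22% and 36.4% were lower in these settings, in the same order. The 0 members higher in GO1 became 1 (*Sycp2*) by the mean over cells, without the 10 deepest cells or at 1.5-fold. They became 2 (*Sycp2* and *Tex12*) in thinned cells. The shares of all genes higher in GO1 were 22.1%, 21.6%, 30% and 22.9% in these settings, in the same order. The 0 members changed from GO1 to GO2 became 1 by the mean over cells or at 1.5-fold (*Sycp2*) or with no minimum (*Syce3*), and 2 in thinned cells (*Sycp1* and *Syce1*). At that step 16.5%, 14.7%, 23.8% and 23.9% of all genes changed in these settings, in the same order. The 0 members from GO2 to GO3 became 1 in thinned cells (*Hormad1*), with no minimum (*Syce3*) or at 1.5-fold (*Sycp1*). There 16%, 25.4% and 13.5% of all genes changed. The 1 member from GO3 to FGO became 2 with no minimum (*Hormad2* added) and 0 at 50 CPM, with 28.5% and 3.38% of all genes changed. The 5 members lower from NGO to FGO became 4 to 6. *Syce1* was lost by the mean over cells, in thinned cells and without the 10 deepest cells. In thinned cells *Sycp2* was higher in FGO and was counted among the changed. Between NGO and FGO 23.8% to 51.2% of all genes changed either way under the alternatives.

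The 4 partner genes lower in GO1 became 6 by the mean over cells (*Ccdc155* and *Lmna* added), 8 in thinned cells and 7 without the 10 deepest cells (both genes and *Terb2* added, and *Rec114* in thinned cells), 11 with no minimum, 2 at 50 CPM and 7 at 1.5-fold. Beside these counts, 34.6%, 34.8%, 37.6%, 31%, 22% and 36.4% of all genes were lower in these settings, in the same order. The 2 partner genes higher in GO1 became 4 without the 10 deepest cells or at 1.5-fold, where 21.6% and 30% of all genes were higher. From NGO to GO1, TMM factors moved the median log2 difference of all genes by 0.16 and the mean over cells by -0.21. By the mean over cells 16.5% of all genes changed from GO1 to GO2, in place of 3.14%, and in thinned cells 23.9%. Low counts limit what can be said of *Syce3* after NGO and of *Hormad2*, and no value here has a replicate error.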
